A study of Hordeum vulgare with 12 samples.

Results

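VRS5, also called HvTB1, is a TCP transcription factor of barley and the ortholog of TEOSINTE BRANCHED 1 of maize, known for holding back tillers and lateral spikelets. Its binding to naked genomic DNA was measured by DAP-seq, in which a FLAG-tagged protein made in vitro captures fragments from a genomic library. There were 12 libraries, 6 in which VRS5-FLAG was the bait and 6 controls made with GFP-FLAG, a protein with no DNA-binding domain. The genomic DNA came from developing inflorescences of cv. Morex, collected 4 weeks after sowing at about Waddington stage 4, and each replicate took 100 mg of tissue. The GFP-FLAG libraries were also used to list greenscreen regions, stretches in which the control itself gathered many reads, and every VRS5 peak that overlapped such a region was removed by the authors. The members described here are the greenscreen regions with at least 1 base inside a protein-coding gene of the RefSeq annotation of MorexV3, from gene start to gene end. There were 2684 of them among the 20855 regions on chromosomes 1H to 7H, or 12.9% (95% Wilson interval 12.4 to 13.3), and the whole list held 20939 regions. They touched 3372 of the 30627 protein-coding genes (11.0%, 10.7 to 11.4). Each list was deposited once for all 6 libraries of its group and holds no value per library. No value therefore has a replicate error, and no difference below was tested. The intervals are for counting error only and treat regions, genes and peaks as independent.

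As background, a list of this kind is used because some sequence collects reads whatever the bait. Copies that the assembly holds in too small a number, and nuclear copies of organelle DNA, are usual examples. A masked gene is not an unbound gene, as binding inside a masked stretch is simply not reported. Peaks were assigned to genes here by a distance of up to 15 kb on both sides, and masking takes away part of the sequence in which a peak could have been found. The annotation used here places each gene by a locus name, a start and an end. Product names, strands, exons and sequences were not used here, so that no role is given to a single gene and no sequence is shown.

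Most touched genes were masked entirely. Of the 3372 genes, 1907 (56.6%, 95% Wilson interval 54.9 to 58.2) lay wholly inside a region, 587 were covered from 50 to under 100%, 636 were covered from 10 to under 50%, and 242 (7.18%) were covered by less than 10%. Counted in bases, 14.0 Mb of protein-coding spans were masked, or 10.3% of their 136 Mb, against 6.36% of the sequence outside these spans. Gene spans took up 26.7% of the bases of the touching regions, against 3.24% of the chromosomes as a whole. The rule asks for a gene in each of these regions, so that the first of these shares has to be the higher one.

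**Figure D1:**
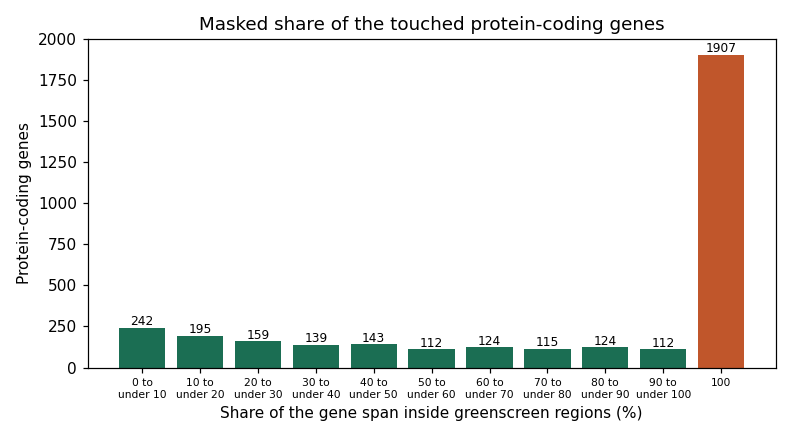
Number of touched protein-coding genes (y axis) by the share of the gene span inside greenscreen regions (x axis, in percent, classes of 10 points, with wholly covered genes as the last bar). The bar at 100% holds 1907 genes, and the class under 10%, the next highest, holds 242.

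The way in which genes and regions lay over each other followed 3 patterns among the 3392 pairs of a gene and a region. In 1907 pairs the gene lay inside the region, in 1173 they shared 1 end, and in 312 the region lay inside the gene. Genes inside a region were short, with a median of 2557 bp (quartiles 1451 and 4314), and their regions had a median width of 19536 bp. Genes with a region inside them had a median length of 24418 bp (quartiles 11657 and 42842), the region had a median width of 3982 bp, and the median share covered was 18.7%. At the limit set by the rule, the smallest overlap was 15 bases and 20 pairs shared fewer than 100 bases. On the other side of it, the closest region that touched no gene lay 4 bp from one, and 13 such regions lay under 100 bp from a gene.

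The length of the gene moved strongly with masking. Of the genes up to 1 kb long, 7.89% were touched (95% Wilson interval 7.05 to 8.82), and 86.8% of those touched were wholly covered. Of the genes from 2 to 5 kb, 9.89% were touched (9.38 to 10.4), of those from 10 to 20 kb 19.3% (17.4 to 21.3), of those from 20 to 50 kb 40.03% (36.4 to 43.8), and of the 116 genes over 50 kb 62.9% (53.9 to 71.2). A longer gene has more room for a region, which alone raises these shares. The share of bases masked is free of this effect. It stayed between 7.37 and 8.04% in the 4 classes of genes up to 10 kb, and reached 10.2% in genes of 10 to 20 kb, 16.5% in genes of 20 to 50 kb and 20.8% in genes over 50 kb. Over the chromosomes as a whole, long genes were therefore masked more often per base as well. They were rarely masked in full, and 2 of the 73 touched genes over 50 kb were wholly covered.

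**Figure D2:**
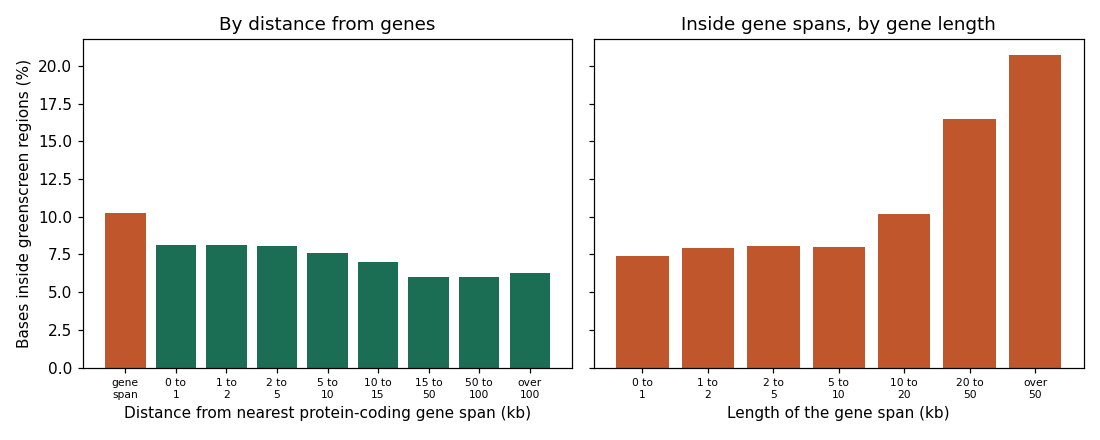
Percent of bases inside greenscreen regions (y axis). The left panel shows gene spans and then sequence by its distance from the nearest protein-coding span in kb, and the right panel shows gene spans by gene length in kb. The share falls to between 5.98 and 6.26% beyond 15 kb from genes, and is 20.8% in genes over 50 kb.

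Masking was also denser beside genes than far from them. The share of bases masked was 8.11% within 1 kb of protein-coding spans, 8.14% from 1 to 2 kb, 8.03% from 2 to 5 kb, 7.57% from 5 to 10 kb and 7.02% from 10 to 15 kb. It was 6.03% from 15 to 50 kb, 5.98% from 50 to 100 kb and 6.26% beyond 100 kb. Over the chromosomes as a whole, short genes and the first kilobases beside genes were thus masked to a similar extent, and the long genes stood above both.

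The place on the chromosome separated long and short genes. Each chromosome was divided into 5 zones of equal length, from its ends to its middle, with both arms combined. Over the zones from end to middle, 9.35%, 9.99%, 11.7%, 15.2% and 18.5% of the genes were touched. Genes also became longer along this path, with a median length of 2650 bp in the zone at the ends and 3656 bp in that at the middle. Among genes of 1 to 5 kb, the share of bases masked was 7.37% at the ends and 9.41% at the middle. For sequence outside protein-coding spans it was 5.56% at the ends and 8.28% at the middle. Among genes over 20 kb, it was 5.29% at the ends, then 15.1%, 10.1% and 23.0%, and 29.0% at the middle. At the ends, these long genes were thus masked less per base than genes of 1 to 5 kb, while at the middle they were masked more. At the ends 40 of 199 such long genes were touched (20.1%, 95% Wilson interval 15.1 to 26.2), and at the middle 133 of 207 (64.3%, 57.5 to 70.5).

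Seen from the side of the regions the order was the opposite one, with 14113 genes in the zone at the ends and 2074 in that at the middle. In the zone at the ends 966 of 3744 regions (25.8%, 24.4 to 27.2) touched a gene, and in the zone at the middle 355 of 5058 did (7.02%, 6.35 to 7.76). By chromosome, the share of genes touched lay between 10.3% on 5H (9.48 to 11.2) and 11.1% on 7H (10.2 to 11.99), except on 4H, where it was 13.3% (12.3 to 14.5). On 4H the greenscreen list covered 6.99% of the chromosome, the highest value of the 7, which ranged from 6.12% on 1H upwards. The next highest value was 6.78% on 6H, where 10.9% of the genes were touched.

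Of the regions, 2130 touched a single gene and 554 (20.6%) touched 2 or more, so that 1262 of the touched genes shared their region with another gene. The highest count was 7 genes. This region lay on 1H from 5039773 to 5116605, was 76833 bp wide and was listed with an enrichment of 5.76-fold in the control. Its first gene, LOC123403783, was wholly covered and its last, LOC123403821, by 91.8%, with 5 further genes between them that were all wholly covered. For LOC123403783 no unmasked base was left within 15 kb. Another 2 regions touched 6 genes each. One spanned 506467586 to 506507505 on 1H, with genes LOC123402584 to LOC123420424 and an enrichment of 6.62-fold. The other spanned 37167083 to 37197414 on 3H, with genes LOC123439448 to LOC123441447 and an enrichment of 4.61-fold. All 12 genes in these 2 regions were wholly covered and none had a VRS5 peak within 15 kb. Their windows kept from 0 to 13.8 kb unmasked, and 22.3% of all wholly covered genes had a peak. Of the 6 regions with 5 genes, the one with the highest enrichment, 37.7-fold, lay on 5H from 582833822 to 582853666. It covered 4.35% of LOC123395190 and 90.2% of LOC123399620, with 3 wholly covered genes between them. The next had an enrichment of 5.21-fold, spanned 572534440 to 572551680 on 4H and reached 6.29% of LOC123449640 and 83.2% of LOC123449643.

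The regions that touched genes were wider than those that did not. Their median width was 16.4 kb (quartiles 9.50 and 25.8 kb), against 9.77 kb (3.21 and 17.4 kb) for the 18171 regions that touched no protein-coding gene. Wide regions meet a gene more often by their size, and the share that touched a gene was 4.25% (3.64 to 4.95) for regions up to 2 kb, 14.7% (13.9 to 15.6) from 10 to 20 kb and 33.4% (28.5 to 38.7) over 50 kb. The smallest gap between listed regions was 20001 bp. Separate stretches closer than that may have been joined by the authors, so that a gene inside a wide region need not have held many control reads itself.

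The median signal of the touching regions hardly differed from that of the others. The fold enrichment that the authors give for each region, over a background that the sources used here do not describe, had a median of 4.70 (quartiles 4.59 and 4.87) in the touching regions, against 4.69 (4.59 and 4.87) in the others. The median -log10 q was 11.1 in touching regions and 11.0 in the others. In 83.6% of the touching regions, and 83.0% of the others, the enrichment was below 5-fold. Most masked genes therefore lay in regions just above the lowest enrichment of the list, which was 4.48. Over the touching regions, width and enrichment were only weakly related (Spearman's rho = 0.19, n = 2684, across regions of the same list).

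Regions with a high signal were about as frequent among the touching ones as in the list. Over 10-fold stood 111 touching regions (4.14%) and 895 others (4.93%), and the share over all regions was 4.82%. Of all regions over 10-fold, 11.0% touched a gene (95% Wilson interval 9.24 to 13.1), an interval that holds the 12.9% of the whole list. Over 20-fold stood 2.35% of the touching regions and 2.47% of the others. The order of both sets changed with width, and the touching regions were the more often over 10-fold only from 10 to 30 kb. From 5 to 10 kb 2.70% of touching regions exceeded 10-fold against 3.80% of the others, and over 50 kb 9.26% against 9.77%. Up to 2 kb, 6 of 156 touching regions (3.85%) exceeded 10-fold, against 9.76% of the others, and from 2 to 5 kb 1 of 196 (0.510%) did, against 3.89%. From 10 to 20 kb it was 3.85% of touching regions against 2.74% of the others, from 20 to 30 kb 6.60% against 4.60%, and from 30 to 50 kb 4.10% against 6.46%. Of the regions with a gene wholly inside, 5.86% exceeded 10-fold, while 3 of the 312 regions that lay inside a gene (0.962%) did.

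**Figure D3:**
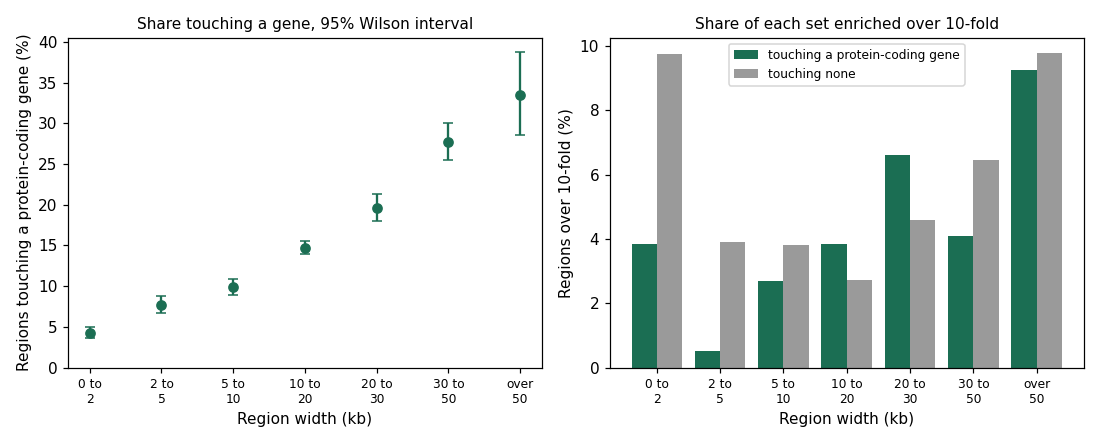
Greenscreen regions by width in kb (x axis). The left panel gives the percent that touched a protein-coding gene with 95% Wilson intervals, rising to 33.4% over 50 kb, and the right panel gives the percent of touching regions and of other regions enriched over 10-fold, 3.85% against 9.76% up to 2 kb.

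The touching region with the highest enrichment lay on 6H, at 514705757 to 514728054. Its enrichment in the control was 398-fold, with a -log10 q of 7050. It was 22298 bp wide and wholly covered 3 neighbouring genes, LOC123405713, LOC123405954 and LOC123405955, of which the last, at 7452 bp, was the longest. No VRS5 peak was listed within 15 kb of them, where 15.2 kb around LOC123405955 were unmasked. Of touched genes with 15 to 20 kb unmasked, 27.6% had a peak. The next, on 7H from 571066737 to 571068389, was only 1653 bp wide and was enriched 389-fold. It covered 66.5% of LOC123409332, from 571067350 to 571068912. This gene had 29.9 kb unmasked around it and no VRS5 peak. Of touched genes with 25 to 30 kb unmasked, 34.2% had a peak within 15 kb.

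A very narrow region of high signal lay inside LOC123405857 on 6H, from 552154627 to 552154856. It was 230 bp wide, was enriched 311-fold and covered 1.38% of this gene of 16608 bp. A similar case was the region of 186 bp on 3H from 576381583 to 576381768, enriched 88.9-fold, which shared 46 bases with one end of LOC123440715. At both genes nearly all of the window was open, with 46.4 and 35.6 kb unmasked, and neither had a peak. Among touched genes with less than 25% of the window masked, 43.1% had one. Such narrow regions place the control reads on the gene or at its edge, which the wide regions do not.

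The other 6 regions among the 10 with the highest enrichment were 6.13 to 40.3 kb wide. LOC123449620 on 4H was wholly covered by a region enriched 237-fold, and LOC123395406 on 5H by one enriched 200-fold. That of LOC123395406 was 40322 bp wide and left no unmasked base within 15 kb of the gene. LOC123425510 on 1H was wholly covered by a region enriched 170-fold, and LOC123426105 on 2H by one enriched 103-fold. LOC123445718 on 1H was covered by 28.2% at one end by a region enriched 150-fold, and LOC123395943 on 5H, a gene of 670 bp, by 70.1% with an enrichment of 98.1-fold. Of these 10 genes, 2 had a VRS5 peak within 15 kb, where 28.3% of all touched genes had one. The peak near LOC123425510 was enriched 4.35-fold with its summit 4.24 kb away, and the peak near LOC123445718 was enriched 3.39-fold with its summit 7.63 kb away.

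**Figure D4:**
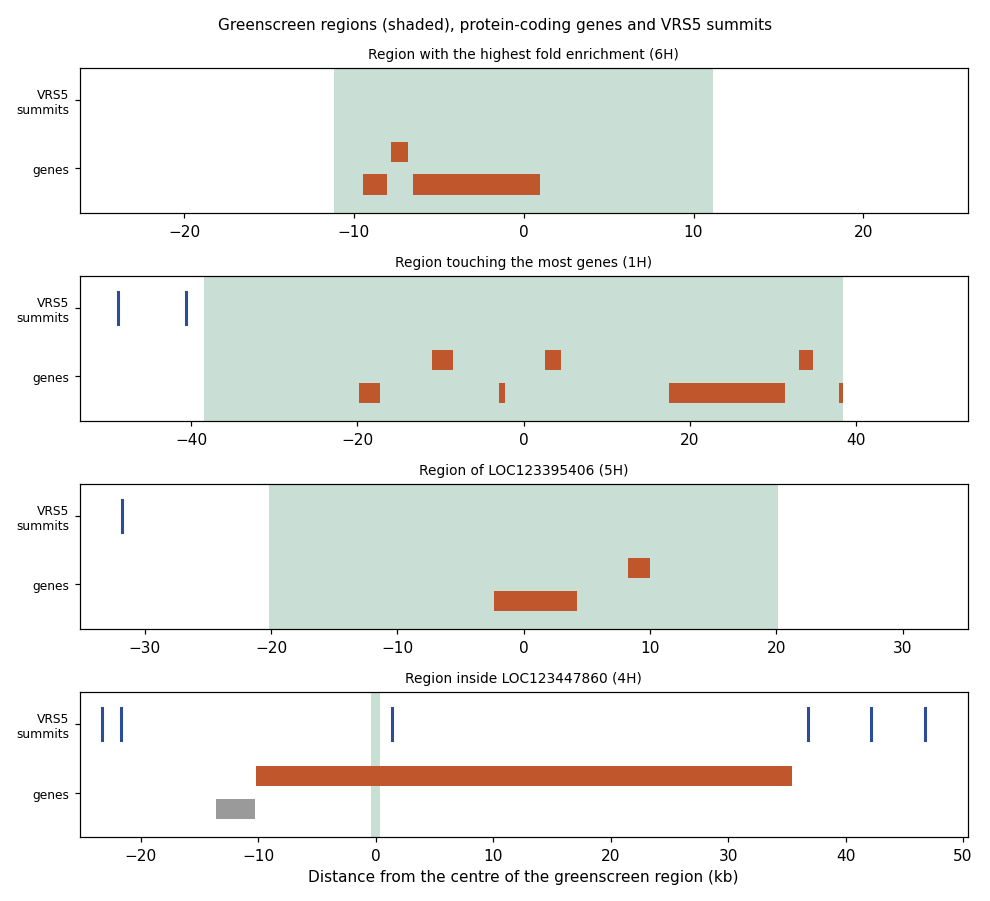
Maps of 4 greenscreen regions (shaded), with the protein-coding genes (bars, orange where touched and grey where not) and the VRS5 summits (blue ticks), by distance from the centre of the region in kb. The upper 3 maps reach 15 kb beyond the region, the lowest 15 kb beyond LOC123447860. The strongest region has no VRS5 summit in its map, and LOC123447860 has 6 around a region of 814 bp.

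Of the 5 longest genes that were wholly masked, 3 lay in regions with an enrichment inside the quartiles of the touching regions. The longest of the 5, LOC123404263 on 6H, from 262844806 to 262922184, was 77379 bp long and lay in a region of 93592 bp enriched 6.01-fold, above the upper quartile of 4.87. LOC123426122 on 2H, at 62973 bp, lay in a region enriched 4.64-fold, LOC123401893 on 6H, at 36940 bp, in one enriched 4.82-fold, and LOC123428016 on 1H, at 30503 bp, in one enriched 4.82-fold. The other gene above this quartile was LOC123412918 on 7H, at 34620 bp, whose region of 86064 bp was enriched 15.2-fold and left no base unmasked within 15 kb. None of the 5 genes had a VRS5 peak within 15 kb, against 22.3% of all wholly covered genes with one. From the longest gene to the shortest, their windows kept 13.8, 21.0, 5.11, 0 and 15.9 kb unmasked. Only 1 gene was touched by 3 regions, LOC123406267 on 6H, which was 124401 bp long and covered by 20.7%. It was chosen after its values were seen, for this count.

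Other annotated features lay in the touching regions as well. They held 172 pseudogenes, or 3.29 per Mb, against 1.67 per Mb in the regions that touched no protein-coding gene, and 102 genes of long non-coding RNA (1.95 against 0.796 per Mb). The rule asks for a protein-coding gene in each touching region, and its part in these densities cannot be told apart. Genes of tRNA, the adapter molecules of translation, were also denser there, with 47 in 39 touching regions (0.899 per Mb), against 19 in 18 of the other regions (0.0864 per Mb). Genes of rRNA, the RNA of the ribosome, went the other way, with 4 in 2 touching regions (0.0765 per Mb), against 232 in 30 other regions (1.06 per Mb). Over the whole greenscreen list, 6.71% of the 983 tRNA genes were touched (95% Wilson interval 5.31 to 8.45) and 2.804% of the 8416 rRNA genes (2.47 to 3.18), where 6.48% of the chromosome sequence was masked. As a class, tRNA genes were thus masked at about the share of the sequence as a whole, and rRNA genes below it. Near-identical copies of tRNA and rRNA genes can share reads, which the lists do not show.

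VRS5 peaks were listed near fewer of the touched genes than of the others. At least 1 peak lay within 15 kb of 955 touched genes, a share of 28.3% (95% Wilson interval 26.8 to 29.9), against 10221 of the 27255 other genes (37.5%, 36.9 to 38.1) and 36.5% of all protein-coding genes. For wholly covered genes the share was 22.3% (20.5 to 24.2), and for partly covered genes 36.2% (33.8 to 38.7). Of the touched genes with a peak, 736 had 1 and 219 had more, up to 6. The 1136 peaks concerned were 1.14% of those on 1H to 7H, and 930 of them were within 15 kb of touched genes only, while 206 were also near a gene that was not touched.

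The windows of touched genes were much smaller once the greenscreen regions had been taken out. Within 15 kb, including the gene itself, a touched gene had a median of 18.3 kb of unmasked sequence (quartiles 12.8 and 26.4 kb), against 32.3 kb (31.1 and 34.3 kb) for the other genes. For 132 touched genes the whole window was masked, and 274 had under 5 kb left. With flanks of 1 kb added on both sides, 1649 touched genes (48.9%) were still wholly masked, and with flanks of 5 kb 740 (21.9%) were. The share of touched genes with a peak was 43.1% (39.5 to 46.8) where less than 25% of the window was masked, 32.0% (29.4 to 34.7) from 25 to 50%, 23.0% (20.5 to 25.7) from 50 to 75%, and 7.96% (5.83 to 10.8) above that. In genes with 20 to 25 kb of unmasked window, it was 31.6% (27.7 to 35.8) for touched genes and 30.3% (27.7 to 33.1) for the others. With 25 to 30 kb it was 34.2% (29.7 to 39.0) for touched genes and 33.4% (31.2 to 35.7) for the others. At matched unmasked length the intervals of both sets overlapped, also with 15 to 20 kb, at 27.6% (24.5 to 30.9) for touched genes and 22.5% (18.3 to 27.3) for the others. An overlap of intervals does not show equal shares, and the share of touched genes was the higher one in each of these classes.

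Per unmasked megabase, the density of VRS5 peaks around touched genes was not below that around other genes. Within 15 kb of touched genes there were 17.7 peaks per Mb (95% Poisson interval 16.7 to 18.8) over 64.1 Mb, against 16.6 per Mb (16.2 to 16.9) over 661 Mb for the other genes. In the flanks alone, without gene spans, there were 19.2 summits per Mb (18.0 to 20.5) for touched genes and 18.6 per Mb (18.3 to 19.0) for the others. The peaks themselves had close values, with a median fold enrichment over GFP-FLAG of 4.21 (quartiles 3.73 and 4.97) near touched genes and 4.27 (3.78 and 5.02) near other genes. The median GFP-FLAG background at the summit, computed back from pileup and enrichment, was 11.6 near touched genes and 11.4 near the others.

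A peak on the gene span itself was found in 138 touched genes (4.09%), all of them partly covered, against 581 other genes (2.13%) and 2.35% of all protein-coding genes. Wholly covered genes cannot have one. Partly covered genes were also long, with a median of 6206 bp (quartiles 2900 and 17343), against 2798 bp for genes that were not touched. The part of this length in the higher share was not tested.

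The touched genes with the most peaks were mostly long genes that were masked in part. LOC123447860 on 4H, from 57063347 to 57108950, had 6 peaks within 15 kb, enriched 3.74- to 8.27-fold, of which 1 lay on the gene. Its greenscreen region of 814 bp, enriched 4.53-fold, covered 1.78% of the gene. LOC123450614 on 4H, at 95757 bp and with 10.6% covered, had 5 peaks, all on the gene span and enriched 3.73- to 6.998-fold. LOC123406157 and LOC123404202 on 6H, covered by 41.5% and 23.5%, were among the 8 touched genes with 4 peaks. A different case among these 8 was LOC123440712 on 1H, a gene of 3531 bp of which 89.2% was masked by a region of 3608 bp. Its 4 peaks lay 5.74 to 14.4 kb away and were enriched 3.46- to 4.002-fold.

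SOC1-like, a MADS-box gene that the study followed up and the only gene named there that could be placed here, is LOC123437294 on 1H. It was not touched, the nearest greenscreen region lay 26.7 kb away, and its window of 40.3 kb was unmasked throughout. Its 1 peak was enriched 5.73-fold, with the summit 8.51 kb from the gene.

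Just outside the regions, VRS5 summits were distributed differently beside touching and other regions. Within 0.25 kb of the edge there were 14.2 summits per Mb (95% Poisson interval 8.53 to 22.1) at touching regions and 21.0 (18.2 to 24.2) at the others. Peaks that reach into a region were removed, which lowers this first class in both. From 0.5 to 1 kb there were 24.97 per Mb (19.3 to 31.7) beside touching regions and 51.2 per Mb (48.0 to 54.6) beside the others. From 5 to 10 kb there were 18.3 per Mb (16.7 to 19.99) beside touching regions and 26.9 per Mb (26.1 to 27.6) beside the others. Over all unmasked sequence the density was 25.4 per Mb. Beyond the first 0.25 kb, the density beside regions that touched no gene was above this average in every class up to 10 kb, and beside touching regions it was below it, with intervals that included the average up to 2 kb. These flanks include gene spans. Without gene spans, the density beside touching regions was 25.8 per Mb (16.5 to 38.3) from 0.25 to 0.5 kb and 25.2 (20.5 to 30.7) from 1 to 2 kb. It was 19.0 (16.7 to 21.6) from 2 to 5 kb and 19.7 (17.96 to 21.7) from 5 to 10 kb. In the flanks within 15 kb of all protein-coding genes, also without gene spans, there were 18.8 summits per Mb (18.4 to 19.1). Against this level near genes, the density beside touching regions was higher from 1 to 2 kb.

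The nearness of genes moved with this difference over all widths. From 0.25 to 2 kb outside the edge there were 24.1 summits per Mb (21.0 to 27.4) at touching regions. At the 3065 regions that touched no gene but lay within 15 kb of one there were 28.9 (25.8 to 32.3), and at the 15106 regions farther from genes 44.9 (43.1 to 46.8). Regions of all widths showed the gap between touching regions and all others. Among regions up to 5 kb wide the density was 24.4 per Mb (16.4 to 34.8) at touching regions and 38.9 (36.3 to 41.7) at the others, and among regions over 20 kb it was 28.7 (23.2 to 35.1) at touching regions and 48.9 (44.7 to 53.2) at the others. Regions that lay within 15 kb of a gene but touched none were close to the touching ones where they were narrow. Up to 5 kb wide they had 22.1 per Mb (17.6 to 27.2), against 42.9 (39.8 to 46.1) for those farther away, and from 5 to 20 kb 28.1 (23.7 to 33.0), against 44.8 (42.3 to 47.4) for those farther away and 20.8 (16.97 to 25.3) at touching regions of this width. Over 20 kb the 466 regions of this kind had 47.9 per Mb (37.8 to 59.7), close to the 49.0 (44.6 to 53.8) of those farther away. The part of gene nearness or width in these values was not tested.

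**Figure D5:**
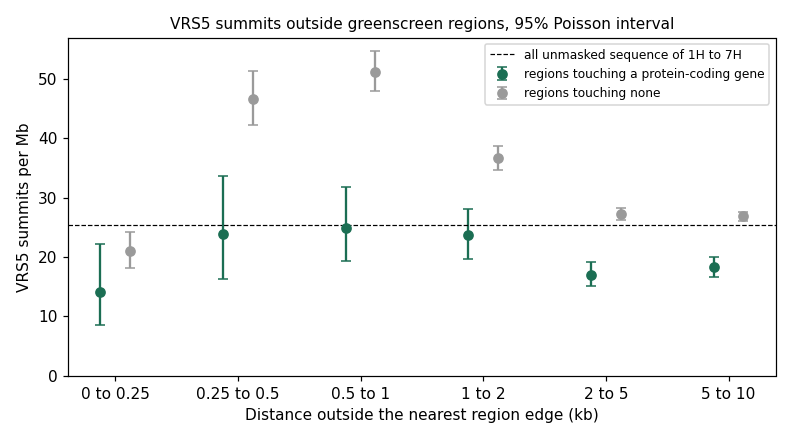
VRS5 summits per Mb (y axis) by distance outside the nearest edge of a greenscreen region in kb (x axis), for regions that touched a protein-coding gene and regions that touched none, with 95% Poisson intervals. The dashed line is the density over all unmasked sequence, 25.4 per Mb. From 0.5 to 1 kb the values are 24.97 per Mb at touching and 51.2 per Mb at other regions.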

How the data were processed

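The 12 libraries were 6 VRS5-FLAG and 6 GFP-FLAG. Per the labels and the methods, the authors trimmed reads with Trimmomatic 0.39, mapped them to MorexV3 with BWA 0.7.17 and called peaks with MACS2 2.2.7.1. Each list was deposited once for all 6 libraries of its group. For each greenscreen region the authors deposited a fold enrichment (a ratio), a -log10 q value and a score that is derived from the -log10 q. For each VRS5 peak they deposited the pileup signal at the summit, a fold enrichment ratio over GFP-FLAG and a -log10 q value, with q below 1e-10; -log10 p columns were not used. Depth per library was not analysed here.

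Regions, peaks and gene spans of the RefSeq MorexV3 annotation were intersected on 1H to 7H, with starts in the greenscreen list counted from 0 by its format and turned to counting from 1. A peak was near a gene with any base within 15 kb. Shares have 95% Wilson and densities 95% Poisson intervals. The interval functions were tested on simulated intervals against a count base by base. Tables were joined with pandas 2.3.3 and numpy 2.4.6 under Python 3.11.15, intervals came from scipy 1.17.1, and plots were drawn with matplotlib 3.10.9. Alternatives were another overlap, stricter regions or peaks, shortened regions, all annotated genes, other windows and summits.

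The members and lists were chosen with earlier results of these data known. Named genes were the most covered gene of each of the 10 touching regions with the highest enrichment, the 5 longest wholly covered genes, the first and last genes of the 5 regions with the most genes, the 5 touched genes with the most peaks, and genes the study names. Ties were broken by enrichment for regions, by gene length for the most covered gene of a region, and by the covered share for the genes with the most peaks. Protein, promoter and motif features and gene families planned at the start were not analysed here, as no sequence or product name was used.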

Additional observations from a re-analysis of the deposited data

How the results depend on the processing

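No paired analysis was possible because each list merges its replicates, although the labels number them alike; leaving out single libraries was not run for this reason. Of 29 alternative values, 15 stayed within 1.5 times a count or within the interval of the reported value. With regions of a -log10 q of at least 20, there were 180 touching regions, 239 touched genes and 173 wholly covered genes, the median width was 21392 bp and the median enrichment 14.0-fold, as a stricter threshold keeps fewer and stronger regions, and the share of touched genes with a VRS5 peak was 20.9% (16.2 to 26.5). That share was 9.34% with a window of 5 kb and 77.6% with 50 kb, 9.37% with peaks of q below 1e-20 and 0.593% with q below 1e-50. The density around touched genes was 15.3 and 21.5 peaks per unmasked Mb with windows of 5 and 50 kb, and 5.12 and 0.281 with q below 1e-20 and 1e-50. A wider window or a looser threshold can only add genes with a peak. The cause of the change in density with the window was not tested. What depth limits was not tested.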
